A study of Mus musculus with 4 samples.

Results

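The 10 genes described here are immediate early genes, Fos, Fosb, Jun, Junb, Egr1, Nr4a1, Atf3, Dusp1, Zfp36 and Ier2, chosen by symbol from the 17958 genes of the deposited table, and all 10 were found and tested. Mouse epidermis was profiled by RNA sequencing in 4 libraries, 2 titled IL-36Ra-cKO (conditional knockout) and 2 titled IL-36Ra-fl/fl, the name for mice with loxP-flanked alleles and here the controls. Il36rn encodes the protein named in both titles, a secreted antagonist of the IL-36 receptor. The genotype field calls the cKO group a knockdown and the fl/fl group WT, and both groups have no treatment. The labels give no Cre driver, age, sex, number of animals or time between death and lysis. Since no label ties replicates to different animals, p-values measure only the spread between these libraries, which may be technical.

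Immediate early genes are transcribed within minutes of a stimulus without new protein synthesis, because the factors that switch them on, serum response factor with its ternary complex partners and CREB, are already in the nucleus and are activated by kinases. Their products fall into transcription factors, which carry the signal to a later set of genes, and feedback proteins, which end the signal or shorten the life of the messenger RNA. In skin they answer to wounding, growth factors, ultraviolet light and cytokines, and they are also known to come on while tissue is being cut or dissociated.

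All 10 genes had their highest level in cKO replicate 1, as 28.4% of all tested genes did, and 8 of the 10 were higher in both cKO libraries than in both fl/fl libraries, as 34.8% of all tested genes were. Fos, Jun, Junb, Egr1, Dusp1, Zfp36, Ier2 and Fosb made up those 8, whereas Nr4a1 and Atf3 were high in cKO replicate 1 alone, about 15-fold above cKO replicate 2. The fitted changes ran from 1.77-fold for Jun to 7.09-fold for Atf3, with a median log2 fold change, always the cKO group minus the fl/fl group, of 1.396, against 0 over all 14459 genes tested. No member passed edgeR's quasi-likelihood test with Benjamini-Hochberg adjustment over all genes at 0.05, a threshold that 0.0277% of genes passed upward. At an unadjusted p under 0.05 the same test put those 8 genes higher and no member lower, where 16.5% of all genes were higher and 15.6% lower. On log2(TPM + 1), with 13254 genes tested, 5 members were higher, where 11.3% of genes were (1496 higher and 2965 lower, beside 2391 and 2250 of 14459 genes in counts). DESeq2 called 6 of the 10 higher, Fos, Fosb, Egr1, Dusp1, Zfp36 and Ier2, where it called 9.01% of genes higher.

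The total count per library was 14723409 and 14622791 in the cKO libraries and 15918854 and 16490602 in the fl/fl libraries, and the 10 genes together took 0.369% and 0.169% of the cKO counts and 0.0795% and 0.115% of the fl/fl counts. The targeted gene, listed under the older symbol Il1f5, had 3258 and 2508 counts in the cKO libraries and 3743 and 3489 in the fl/fl libraries (log2 fold change -0.24 ± 0.24 SE, adjusted p = 0.509), so its gene-level count does not check the labels, and which exons were to be deleted is not stated. Y-linked genes summed to 299.5 and 354 CPM (counts scaled to library size with TMM factors) in the cKO libraries and to 3.74 and 4.89 in the fl/fl libraries. Apparent sex and genotype label therefore cannot be told apart in anything that follows. The keratinocyte genes were abundant in every library, with basal markers summing to 20730 and 21660 CPM in the cKO libraries and 16940 and 19650 CPM in the fl/fl libraries. Suprabasal markers were less even, summing to 33130 and 28330 CPM in the cKO libraries and 27160 and 15930 CPM in the fl/fl libraries. Of the 7 markers in each list, 4 were higher in both cKO libraries and 1 lower in both, beside 34.8% and 32.9% of all tested genes.

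The promoters below show what the stretch just upstream of the start holds in 6 of the genes, 3 with less than a 2-fold gap between the cKO libraries (Fos, Dusp1 and Zfp36) and 3 with most of their difference in cKO replicate 1 (Fosb, Nr4a1 and Atf3). Each is the 250 bases before the RefSeq start in build GRCm38.p6, an older build than the GRCm39 named in the submitters' processing notes, written 5′ to 3′ on the gene's strand. Capitals mark matches on either strand to the CRE core TGACG (which lies within the full CRE, TGACGTCA, and so overlaps it), to the AP-1 site TGANTCA, to the EGR site GCGNGGGCG, to TATAAA, and to the CArG box, which serum response factor binds.
Fos, chr12:85473640-85473889, plus strand: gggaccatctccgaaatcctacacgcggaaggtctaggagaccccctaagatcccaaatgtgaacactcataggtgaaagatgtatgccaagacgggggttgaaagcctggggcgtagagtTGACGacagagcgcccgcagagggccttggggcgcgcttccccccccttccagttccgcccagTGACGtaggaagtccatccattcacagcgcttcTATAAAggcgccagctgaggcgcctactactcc
Dusp1, chr17:26508473-26508722, minus strand: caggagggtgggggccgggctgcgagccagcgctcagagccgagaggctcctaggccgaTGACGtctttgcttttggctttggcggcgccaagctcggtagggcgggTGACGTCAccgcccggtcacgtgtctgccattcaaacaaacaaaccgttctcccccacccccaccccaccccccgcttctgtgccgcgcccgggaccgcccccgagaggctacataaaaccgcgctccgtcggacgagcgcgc
Zfp36, chr7:28379229-28379478, minus strand: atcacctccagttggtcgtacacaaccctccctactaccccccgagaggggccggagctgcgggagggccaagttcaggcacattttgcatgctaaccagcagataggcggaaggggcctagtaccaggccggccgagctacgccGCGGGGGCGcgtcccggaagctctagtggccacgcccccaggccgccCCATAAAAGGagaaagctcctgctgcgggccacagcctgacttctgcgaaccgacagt
Fosb, chr7:19310046-19310295, minus strand: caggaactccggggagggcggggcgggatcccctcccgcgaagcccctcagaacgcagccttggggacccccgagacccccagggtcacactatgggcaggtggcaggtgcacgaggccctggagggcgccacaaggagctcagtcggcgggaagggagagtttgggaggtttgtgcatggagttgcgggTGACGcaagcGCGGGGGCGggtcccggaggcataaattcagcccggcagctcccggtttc
Nr4a1, chr15:101266596-101266845, plus strand: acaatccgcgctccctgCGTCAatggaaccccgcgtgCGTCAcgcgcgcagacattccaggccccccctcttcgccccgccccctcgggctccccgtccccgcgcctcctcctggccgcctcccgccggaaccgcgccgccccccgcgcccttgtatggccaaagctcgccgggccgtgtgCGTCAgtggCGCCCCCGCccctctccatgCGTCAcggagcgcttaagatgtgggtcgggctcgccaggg
Atf3, chr1:191183334-191183583, minus strand: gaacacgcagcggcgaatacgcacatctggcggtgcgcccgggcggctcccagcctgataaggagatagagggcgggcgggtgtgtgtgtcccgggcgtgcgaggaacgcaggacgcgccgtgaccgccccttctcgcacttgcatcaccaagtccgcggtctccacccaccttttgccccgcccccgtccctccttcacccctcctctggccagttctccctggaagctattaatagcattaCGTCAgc

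Promoter sequences matched 8 of the 10 genes by identifier, the 6 above with Jun and Junb. The others, Egr1 and Ier2, were not searched. The CRE core TGACG was found in 6 of the 8 windows, in Nr4a1 at 4 places, and in 23% of 14098 promoters of genes in the table. The full CRE TGACGTCA was found in Dusp1 from 143 to 136 bases before the start, and in 2.23% of all promoters. The EGR site was found in Fosb, Nr4a1 and Zfp36 and in 7.32% of promoters. A CArG box was found in Zfp36, from 58 to 49 bases before the start, and in 1.3% of promoters, and TATAAA in Fos and in 8.98%. No window held TGANTCA, which 5.33% of promoters held. The NF-kB site, not capitalised, was found in Fos and Fosb and in 4.47% of promoters. All motifs were searched on both strands, and a match describes letters in a window and not binding.

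Immediate early genes are known for compact genes and for short-lived messages. Jun, Junb and Ier2 have 1 exon each in the GENCODE annotation of GRCm38, as 3.74% of genes do, and the other members have 2 to 7 exons, where the median gene has 8. AU-rich elements, which the product of Zfp36 binds to mark messages for decay, centre on the pentamer ATTTA. In the longest annotated 3′ untranslated region of each gene, Dusp1 had 4 pentamers, Fos 4, Jun 4, Nr4a1 3, Atf3 3, Zfp36 3, Junb 2, Egr1 2, Fosb 1 and Ier2 0. Per kilobase the median of the 10 was 3.56, against 1.22 over 16893 genes, and 8 of the 10 lay above that median. The longer motif TTATTTATT, which holds the pentamer, occurred in Fos, Dusp1 and Zfp36, and in 7.63% of genes.

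**Figure D1:**
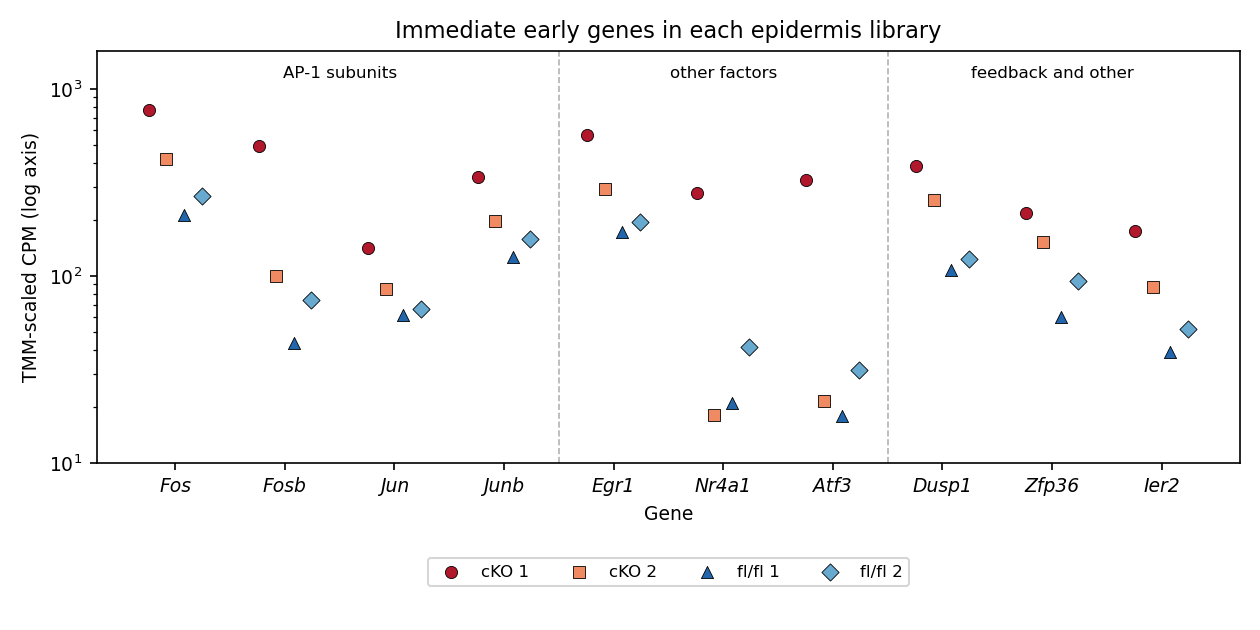
Level of each of the 10 genes in each library, as TMM-scaled CPM on a log axis, with the cKO libraries to the left of the fl/fl libraries for each gene and 1 point per library. cKO 1 is the highest point of every gene, and the cKO 2 points of Nr4a1 and Atf3 lie at the level of the fl/fl points.

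Fos, Fosb, Jun and Junb encode subunits of the dimeric transcription factor AP-1, in which Fos-type proteins pair with Jun-type proteins. All 4 were higher in both cKO libraries, and together they summed to 1747 and 804.7 CPM in the cKO libraries, against 442.4 and 567.5 CPM in the fl/fl libraries.

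Fos (gene ID 14281), the founding member of the class, had 11392 and 6407 counts in cKO replicates 1 and 2, against 3102 and 4616 in the fl/fl libraries, or 487 and 278 TPM (abundance scaled for transcript length and library total) against 158 and 193 TPM. The groups did not overlap, and the lower cKO library stood 1.57-fold above the higher fl/fl library in CPM. Fos averaged 382.5 ± 148 TPM in the cKO libraries and 175.4 ± 24.6 TPM in the fl/fl libraries (SD, n = 2 each), and its log2 fold change was 1.32 ± 0.36 (SE; edgeR adjusted p = 0.101). It was the most abundant of the 10 per transcript length in every library.

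Fosb (gene ID 14282), whose product can replace Fos in the AP-1 dimer, had 7234 and 1516 counts in the cKO libraries and 641 and 1281 in the fl/fl libraries. In TPM these were 166 and 34.6 in the cKO libraries, against 17.3 and 28.2 in the fl/fl libraries. cKO replicate 1 stood 4.92-fold above cKO replicate 2 in CPM, a wider gap than the 1.71-fold between the fl/fl libraries, while cKO replicate 2 stood 1.34-fold above the higher fl/fl library. The log2 fold change of 2.33 ± 0.81 (SE; edgeR adjusted p = 0.137) was 0.76 without cKO replicate 1.

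Jun (gene ID 16476) and Junb (gene ID 16477) had the smallest fitted differences of the 10. Jun, the main partner of Fos, had 2073 and 1291 counts in the cKO libraries and 904 and 1142 in the fl/fl libraries, or 56.3 and 35.3 TPM against 28.9 and 29.9 TPM. Its fl/fl libraries lay close together (29.4 ± 0.721 TPM, SD, n = 2), and the log2 fold change was 0.82 ± 0.28 (SE; edgeR adjusted p = 0.133). Junb, a Jun relative that restrains keratinocyte inflammation in mice, had 4982 and 2983 counts in the cKO libraries and 1866 and 2715 in the fl/fl libraries. In TPM these were 248 and 152 in the cKO libraries, against 112 and 133 in the fl/fl libraries. The cKO libraries were the higher ones for both genes, and for Junb the log2 fold change was 0.91 ± 0.32 (SE; edgeR adjusted p = 0.141). Without cKO replicate 1 the log2 fold change was 0.41 for Jun and 0.47 for Junb.

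Egr1, Nr4a1 and Atf3 encode transcription factors of 3 other families, and they split. Egr1 (gene ID 13653), a zinc finger protein induced by MAP kinase signalling, had 8325 and 4420 counts in the cKO libraries and 2532 and 3317 in the fl/fl libraries, or 235 and 126 TPM against 84.2 and 90.4 TPM. Its groups did not overlap, and its log2 fold change was 1.23 ± 0.36 (SE; edgeR adjusted p = 0.111), with 0.68 without cKO replicate 1.

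Nr4a1 (gene ID 15370), an orphan nuclear receptor also known as Nur77, had 4097 and 272 counts in the cKO libraries and 307 and 719 in the fl/fl libraries. In TPM these were 143 and 9.47 in the cKO libraries, against 12.6 and 24.2 in the fl/fl libraries. Here cKO replicate 2 was the lowest of the 4 libraries, so the groups overlapped. The log2 fold change of 2.24 ± 1.24 (SE; edgeR adjusted p = 0.26) had a 95% interval of the fold from 0.501 to 44.5, and it turned to -0.81 without cKO replicate 1.

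Atf3 (gene ID 11910), a stress-induced member of the ATF/CREB family that often represses its targets, had 4807 and 326 counts in the cKO libraries and 262 and 538 in the fl/fl libraries. In TPM these were 221 and 15.3 in the cKO libraries, against 14.4 and 24.2 in the fl/fl libraries. cKO replicate 2 lay between the fl/fl libraries, as the plot of levels by library shows. The log2 fold change of 2.83 ± 1.25 (SE; edgeR adjusted p = 0.188) was the highest of the 10 and had a 95% interval of the fold from 0.741 to 67.8. It turned to -0.19 without cKO replicate 1, so for both genes a difference between the groups rests on that library.

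Dusp1, Zfp36 and Ier2 had the largest excess of cKO replicate 2 over the fl/fl mean among the 10 genes, at 1.14, 1.02 and 0.94 log2 units in that order. Dusp1 (gene ID 19252) encodes the phosphatase MKP-1, which switches off p38 and JNK and so limits inflammatory signalling. It had 5699 and 3854 counts in the cKO libraries and 1586 and 2129 in the fl/fl libraries, or 267 and 184 TPM against 89 and 98 TPM. The lower cKO library stood 2.05-fold above the higher fl/fl library in CPM, the widest such gap of the 10 genes. Dusp1 averaged 226 ± 58.9 TPM in the cKO libraries and 93.5 ± 6.36 TPM in the fl/fl libraries (SD, n = 2 each), and it had the smallest adjusted p of the 10 (log2 fold change 1.47 ± 0.28 SE; edgeR adjusted p = 0.074). It was 1.13 without cKO replicate 1.

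Zfp36 (gene ID 22695) encodes tristetraprolin, which binds AU-rich elements in messages such as that of Tnf and brings them to decay. It had 3196 and 2304 counts in the cKO libraries and 884 and 1611 in the fl/fl libraries, or 167 and 123 TPM against 55.6 and 83.1 TPM. Its cKO libraries differed by 1.43-fold in CPM, the smallest gap of the 10, and its fl/fl libraries by 1.56-fold. The log2 fold change was 1.26 ± 0.32 (SE; edgeR adjusted p = 0.0924).

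Ier2 (gene ID 15936), a short nuclear protein of the same response, had 2551 and 1323 counts in the cKO libraries and 579 and 896 in the fl/fl libraries. In TPM these were 159 and 84.5 in the cKO libraries, against 43.6 and 55.4 in the fl/fl libraries. The groups did not overlap, and the log2 fold change was 1.51 ± 0.38 (SE; edgeR adjusted p = 0.0935).

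**Figure D2:**
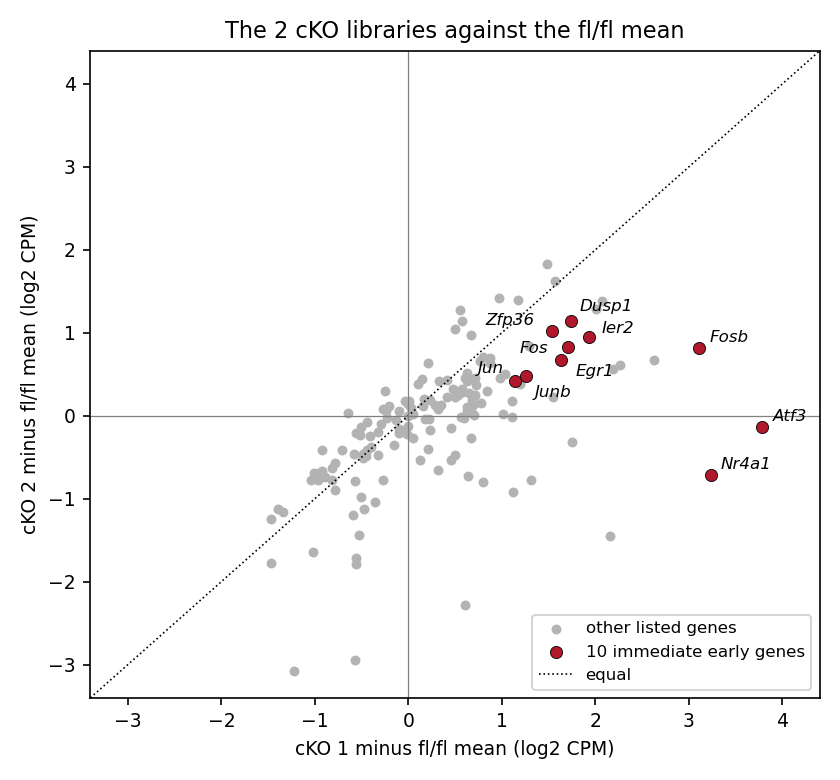
Difference of each cKO library from the mean of the fl/fl libraries in log2 CPM, cKO 1 on the horizontal and cKO 2 on the vertical axis, for the 10 genes (red) and the other genes of the pathway lists (grey). The 10 genes lie below the line of equal difference, most of them with both differences above 0, and Atf3 and Nr4a1 lie farthest to the right with cKO 2 differences of -0.13 and -0.71.

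The cKO libraries thus differed from each other in the same direction for all 10 genes, by 1.43-fold to 15.5-fold in CPM, with cKO replicate 1 the higher each time. Over all genes tested, cKO replicate 1 was above cKO replicate 2 in 51%. The members' excess of cKO replicate 1 over cKO replicate 2 was larger than that of 86.9% (Zfp36) to 99.1% (Atf3 and Nr4a1) of genes. The fl/fl libraries were also ordered alike, with fl/fl replicate 2 above fl/fl replicate 1 in all 10 genes, by 1.08-fold for Jun to 2.01-fold for Nr4a1, against 57% of all genes. As a median over the 10 genes, cKO replicate 1 stood 1.72 and cKO replicate 2 stood 0.74 log2 units above the fl/fl mean. The genes share their libraries, so these orders are 1 observation on 4 libraries and not 10 independent ones.

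Ranked by TPM, the 10 genes kept much the same order in cKO replicate 2 and both fl/fl libraries, with Fos first and Fosb, Atf3 and Nr4a1 in the last 3 places. In cKO replicate 1 Atf3 ranked 5 and Fosb 7, and Jun was last. The first and last places were far apart in cKO replicate 1 (487 TPM for Fos and 56.3 TPM for Jun) and in fl/fl replicate 1 (158 TPM for Fos and 12.6 TPM for Nr4a1). Neighbours in the middle of the order differed by less than the spread between libraries: in the cKO libraries Zfp36 averaged 145 ± 31.2 TPM, Ier2 121.5 ± 52.4 TPM and Atf3 118 ± 146 TPM (SD, n = 2).

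**Figure D3:**
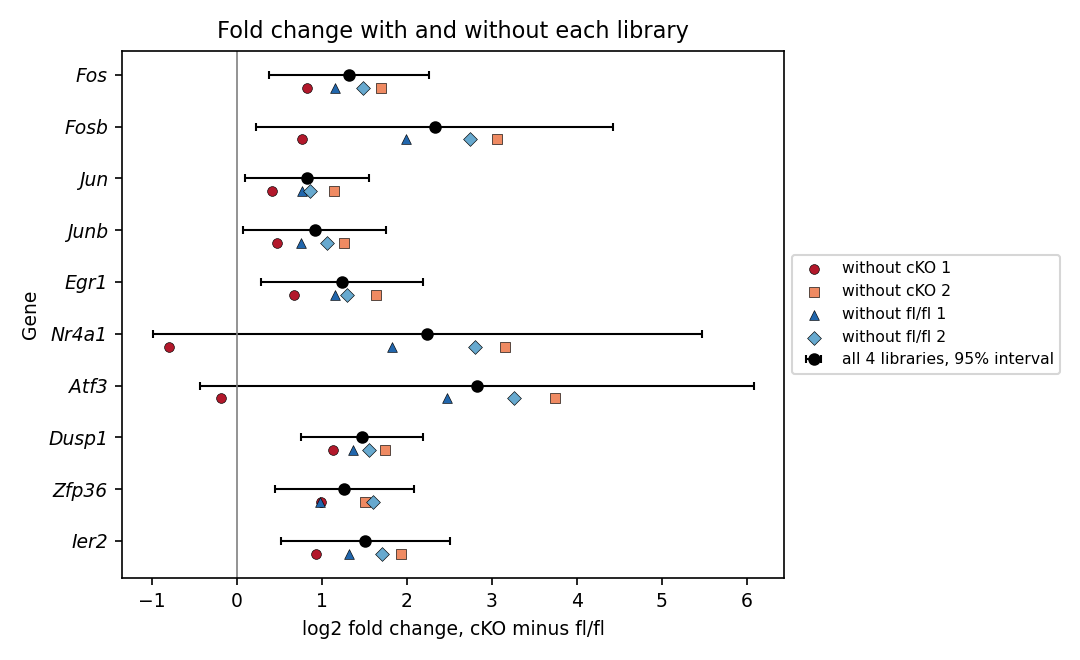
Fitted log2 fold change (cKO minus fl/fl) of each gene with its 95% interval over all 4 libraries (black) and the value with each library left out (coloured points below it). The point without cKO 1 is the lowest for every gene but Zfp36 and lies below 0 for Nr4a1 and Atf3.

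Without cKO replicate 1, the median log2 fold change of the 10 genes was 0.72, with 8 of 10 positive, and 3 of the 10 (Dusp1, Zfp36 and Ier2) were higher at an unadjusted p under 0.05, where 12% of all genes were. That fit has 1 cKO library, which is assumed to vary like the fl/fl libraries. Leaving out cKO replicate 2 gave a median of 1.72. Leaving out an fl/fl library gave 1.24 (replicate 1) or 1.57 (replicate 2), with 2 or 4 members higher at an unadjusted p under 0.05, where 7.13% or 10.5% of all genes were.

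Other features of the libraries differed as well. Hair follicle and hair shaft markers were lower in both cKO libraries in 14 of 14 genes, as 32.9% of all tested genes were, summing to 6323 and 43.2 CPM in the cKO libraries and 21520 and 17960 CPM in the fl/fl libraries, and 5 of them (Krt71, Krt73, Krt31, Krt33a and Krt35) had 0 counts in cKO replicate 2. Skeletal muscle markers, 12 tested, summed to 59.5 and 1572 CPM in the cKO libraries and 104.3 and 126.5 CPM in the fl/fl libraries. T cell markers were higher in both cKO libraries in 4 of 4 tested genes, beside 34.8% of all tested genes, at 43.3 and 43.2 CPM against 13.5 and 13.3 CPM. Dermal fibroblast markers, 8 tested, summed to 3662 and 6330 CPM in the cKO libraries and 2098 and 3244 CPM in the fl/fl libraries, but 5 of the 8 had a negative log2 fold change and their median was -0.07. The part of these tissues in the members' levels was not tested, and in bulk tissue fewer cells of a type and less RNA per cell cannot be told apart. When the muscle, adipocyte, fibroblast, hair and blood markers were removed before scaling, the members' median was again 1.396. That removal changes only the scaling and the fit across genes, and each member keeps its own counts. It therefore cannot show what these tissues add to the members' levels.

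Transcript length moved with the comparison too. With genes in 4 equal bins of effective length, taken from the deposited counts and FPKM, the median log2 fold change was 0.30 in the shortest bin and -0.31 in the longest. The 10 genes had lengths of 1236 to 3463 bases, 3 in the shortest bin, 4 in the second, 3 in the third and 0 in the longest. With each library's trend on length taken out, the members' median was 1.26, all 10 stayed positive, and 7 were higher at an unadjusted p under 0.05, where 15.1% of all genes were.

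Of 144 further genes in 10 lists, 141 were tested, and 0 passed edgeR's adjusted threshold in either direction. At an unadjusted p under 0.05, the rule for every count in the lists below, 25 were higher and 22 lower, shares near the 16.5% and 15.6% of all genes. DESeq2 called 15 higher and 13 lower of the 140 it adjusted, beside 9.01% and 10.5% of all genes. Among 10 other AP-1 and ATF genes tested, with a median log2 fold change of 0.36, 1 was higher and 1 lower. Jund, the Jun family member that is made constantly, stood at 167 and 95.6 CPM in the cKO libraries, against 71.1 and 74.9 CPM in the fl/fl libraries (log2 fold change 0.84 ± 0.30 SE, adjusted p = 0.143). Atf2, a partner of Jun, was the lower one, at 34.8 and 42 CPM against 80.6 and 57 CPM (-0.84 ± 0.23, adjusted p = 0.101).

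Among 17 other immediate early transcription factors, with a median of 0.43, 3 were higher (Myc, Klf2 and Cebpd) and 1 lower (Klf10). Myc, which drives growth, stood at 86.8 and 73.1 CPM in the cKO libraries, against 43.9 and 50.7 CPM in the fl/fl libraries (0.76 ± 0.17 SE, adjusted p = 0.0844). Klf2 stood at 14.4 and 10.5 CPM against 5.03 and 6.63 CPM (1.09 ± 0.29 SE, adjusted p = 0.0984). Unlike Nr4a1 and Atf3, both genes had their cKO libraries close to each other.

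Among 20 immediate early effectors, with a median of 0.14, 5 were higher (Ccn1, Sik1, Arc, Gadd45b and Socs3) and 2 lower (Ptgs2 and Gadd45a). Ccn1, a secreted matrix protein also called Cyr61, stood at 108 and 65.5 CPM in the cKO libraries, against 18.5 and 38.8 CPM in the fl/fl libraries (1.59 ± 0.44 SE, adjusted p = 0.103). Ptgs2, the inducible cyclooxygenase, stood the other way, at 21.5 and 13.9 CPM against 39.2 and 48.6 CPM (-1.31 ± 0.27 SE, adjusted p = 0.08).

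**Figure D4:**
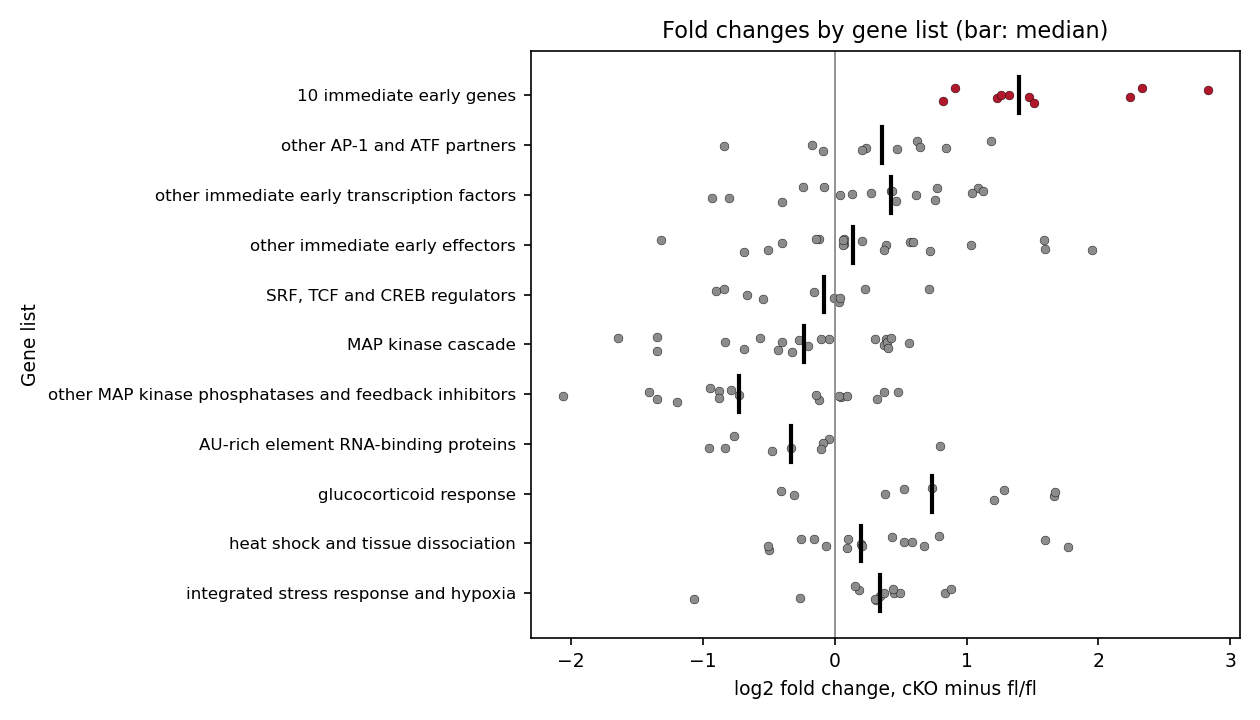
Fitted log2 fold changes (cKO minus fl/fl) of the 10 immediate early genes (top row, red) and of the tested genes of 10 other lists (grey), 1 point per gene, with a black bar at each median. The 10 genes are all above 0 with a median of 1.396, the medians of the other lists run from -0.73 to 0.74, and each of those lists has genes on both sides of 0.

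Next came the regulators that act on the 10 genes. Among 10 SRF, ternary complex and CREB genes, with a median of -0.08, 0 were higher and 2 lower. Srf, which encodes serum response factor and is also induced by it, stood at 75.8 and 39.5 CPM in the cKO libraries, against 32.9 and 37.2 CPM in the fl/fl libraries (0.72 ± 0.34 SE, adjusted p = 0.205). The lower ones were Creb1, at 71.9 and 89.9 CPM against 193 and 108.5 CPM (-0.90 ± 0.33 SE, adjusted p = 0.147), and its relative Crem, at 10.3 and 10.6 CPM against 22.6 and 14.7 CPM (-0.84 ± 0.27 SE, adjusted p = 0.123). Among 20 genes of the MAP kinase cascade, 2 were higher and 6 lower, with a median of -0.23. The kinase Braf stood at 44.7 and 36.1 CPM in the cKO libraries, against 145 and 106.5 CPM in the fl/fl libraries (-1.64 ± 0.23 SE, adjusted p = 0.0678). Map3k5, the stress kinase ASK1, stood at 26.7 and 22.9 CPM against 36.9 and 42.7 CPM (-0.68 ± 0.18 SE, adjusted p = 0.0947). These RNA levels do not measure kinase activity.

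Of 17 other MAP kinase phosphatases and feedback inhibitors, the class that Dusp1 belongs to, 11 had a negative and 6 a positive log2 fold change, with a median of -0.73, and 0 were higher and 5 lower (Spred1, Dusp14, Dusp6, Dusp10 and Dusp4). Spred1, an inhibitor of Ras signalling, stood at 44.8 and 52.3 CPM in the cKO libraries, against 160 and 96.4 CPM in the fl/fl libraries (-1.40 ± 0.29 SE, adjusted p = 0.0803). Dusp14 stood at 43.2 and 31 CPM against 58.5 and 64.4 CPM (-0.73 ± 0.21 SE, adjusted p = 0.108). Among 9 RNA-binding proteins that act on AU-rich elements or in the decay of such messages, with a median of -0.33, 1 was higher and 4 lower. The higher one was Zfp36l2, a relative of Zfp36, at 384 and 564 CPM against 264 and 281 CPM (0.80 ± 0.26 SE, adjusted p = 0.124), with its highest level in cKO replicate 2 and not cKO replicate 1. Cnot7, a deadenylase subunit, stood at 59.6 and 72.1 CPM against 158 and 95.7 CPM (-0.95 ± 0.30 SE, adjusted p = 0.117).

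Dusp1, Zfp36 and Per1 are also known targets of the glucocorticoid receptor. Among 9 genes of the glucocorticoid list, with a median of 0.74, 6 were higher and 0 lower. Tsc22d3, which encodes the glucocorticoid-induced leucine zipper, stood at 79.8 and 93.8 CPM in the cKO libraries, against 38.6 and 32.5 CPM in the fl/fl libraries (1.29 ± 0.18 SE, adjusted p = 0.0669). Sult1a1 stood at 17.8 and 22.6 CPM against 5.37 and 7.33 CPM (1.67 ± 0.27 SE, adjusted p = 0.0691). In both genes cKO replicate 2 was the higher cKO library, the reverse of the order in all 10 immediate early genes. Of the 6 higher genes, Zbtb16 (10.6 and 14.5 CPM in the cKO libraries) shared that reverse order. Per1 (107 and 34 CPM), Cdkn1a (428 and 295 CPM) and Fkbp5 (35 and 31.5 CPM) had the order of the 10 members. These 3 of the 9 genes were highest in cKO replicate 1, beside 28.4% of all tested genes.

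Genes of the heat shock response are also known to come on during tissue handling. Among 16 tested, with a median of 0.20, 5 were higher (Hspa1a, Hspb1, Hsph1, Dnajb1 and Hsf1) and 1 lower (Hspd1). In cKO replicate 1, 9 of the 16 had their highest level, beside 28.4% of all tested genes. That library was also highest for 7 of the 10 other AP-1 and ATF genes. It was highest for 11 of the 17 other immediate early transcription factors and 13 of the 20 effectors. Elsewhere it was highest for 3 of 10 SRF, ternary complex and CREB genes and 6 of 20 MAP kinase cascade genes. It was highest for 5 of 17 phosphatases and feedback inhibitors and 0 of 9 AU-rich element RNA-binding proteins. Of the 13 integrated stress response and hypoxia genes, 6 were highest there. Hspa1a, the inducible Hsp70, stood at 149 and 155 CPM in the cKO libraries, against 46.3 and 54.4 CPM in the fl/fl libraries (1.59 ± 0.18 SE, adjusted p = 0.0656), although its reads are hard to tell from those of Hspa1b. Hspb1, a small heat shock protein of differentiating epidermis, stood at 653 and 404 CPM against 149 and 161 CPM (1.77 ± 0.30 SE, adjusted p = 0.0724). Of 13 genes of the integrated stress response and hypoxia, with a median of 0.34, 2 were higher (Ddit3 and Bnip3) and 0 lower. Ddit3 stood at 18.6 and 23 CPM in the cKO libraries, against 12.5 and 10.9 CPM in the fl/fl libraries (0.83 ± 0.21 SE, adjusted p = 0.094). Bnip3 stood at 87 and 128 CPM against 52.5 and 64.5 CPM (0.88 ± 0.25 SE, adjusted p = 0.108).

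The genes outside the set whose pattern was most like the mean of the 10 were Scd3, Per1, Sik1, Tppp3 and Tnfaip3, by Euclidean distance over the 4 libraries between log2 CPM centred on each gene's mean, among 11616 genes with a mean of at least 5 CPM. Scd3, a stearoyl-CoA desaturase, was nearest (distance 0.129), at 15.6 and 4.68 CPM in the cKO libraries, against 2.72 and 4.13 CPM in the fl/fl libraries. Per1, a clock repressor of the glucocorticoid list, followed (0.195), at 107 and 34 CPM against 20.2 and 24.4 CPM. Sik1, a kinase of the effector list, stood at 198 and 64.1 CPM against 41.2 and 45.7 CPM (0.241). Tppp3 stood at 191.5 and 81.1 CPM in the cKO libraries and 46 and 58.8 CPM in the fl/fl libraries (0.254), and Tnfaip3, an inhibitor of NF-kB, at 127 and 37 CPM in the cKO libraries and 30.3 and 35.3 CPM in the fl/fl libraries (0.353). With 4 libraries, likeness of pattern is a description only.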

How the data were processed

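RNA-seq of mouse epidermis in 4 libraries was analysed from 1 deposited gene table. Per the labels' protocols, Trizol-extracted RNA was enriched with oligo(dT) beads, fragmented and sequenced as DNA nanoballs. Strandedness is not given in the sources used here. Tools named in the submitters' processing notes are RSEM 1.3.1, Bowtie2 2.3.4.3 and DESeq2 1.4.5, with build GRCm39 and no roles. The deposited estimated counts per gene were not normalized by the authors (11% to 13% of values per library were not whole). TPM and FPKM are the authors' deposited values, and FPKM served for transcript length alone. Another 12 value columns were not used.

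Counts were rounded and tested with edgeR 4.0.16 (R 4.3.3) by its quasi-likelihood F test. Scaling was by TMM factors and the low-count filter was edgeR's own, with group as the only term and 2 residual degrees of freedom. The fit covered 14459 genes and left out 3499, with Benjamini-Hochberg adjustment and a threshold of 0.05. Prior degrees of freedom were 2.79, and the common dispersion gave a coefficient of variation of 0.269. Log2 CPM used a prior count of 2. Alternatives used DESeq2 1.42.0, limma 3.58.1 (voom on counts, and a trend fit on TPM with a pseudocount of 1 or 0.1 for genes of at least 1 TPM in 2 libraries), other scaling factors, other filters, a length offset, marker genes removed, a replicate block and each library left out. Replicate numbers come from the titles, which do not say what they share.

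The members and lists were chosen with earlier results of these data known. Named beside the 10 members were the 2 genes of smallest p in each list, Srf, Il1f5 and the 5 nearest patterns. Any other gene named was chosen after its values were seen. Promoters are from RefSeq tables of build GRCm38.p6. With 262 or more counts for every member in every library, the spread between 2 libraries limits precision more than depth does.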

Additional observations from a re-analysis of the deposited data

How the results depend on the processing

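Of 170 values of the 10 genes under 17 alternatives, 157 kept direction and side of the threshold, 11 passed the adjusted threshold with DESeq2 or with no scaling factors, and 2 changed sign, Nr4a1 (-0.81) and Atf3 (-0.19), both without cKO replicate 1. Leaving out each library in turn gave -0.81 to 3.16 for Nr4a1 and -0.19 to 3.74 for Atf3. The 4 genes called higher and 0 called lower by edgeR (2391 and 2250 at an unadjusted p under 0.05) became 1278 and 1489 with DESeq2, 236 and 152 with upper-quartile factors and 634 and 725 with no scaling factors, 1 was lower on log2(TPM + 1), and leaving out each library gave 0 to 308 higher and 0 to 579 lower, the upper values without cKO replicate 1. Members called higher, 0 with edgeR, numbered 6 with DESeq2 and 5 with no scaling factors. On log2(TPM + 1) and log2(TPM + 0.1) the median of all genes shifted to -0.16 and -0.17, and the members' median was 1.07 and 1.08. The 8 members at an unadjusted p under 0.05 (16.5% of all genes) became 5 on log2(TPM + 1) (11.3%), 5 on log2(TPM + 0.1) (11.2%), and 2 to 10 with a library left out (7.13% to 14.4%). With the replicate number as a block they were 5 (10.4% of all genes), with 4 genes called higher and 0 lower. The same-numbered libraries' deviations correlated at -0.13 over all genes, which does not tell whether they share anything beyond a number. With the pairing crossed, an alternative chosen after seeing the data, 0 genes were called higher, 0 lower and 0 members. At an unadjusted p under 0.05 that fit had 8 members higher (17.4% of all genes). The cause of these changes was not tested.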

Other observations

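Some genes of the AP-1, immediate early transcription factor and effector lists were highest in cKO replicate 1 and lowest in cKO replicate 2. They were chosen after their values were seen, and 28.4% of all tested genes were highest in cKO replicate 1. Fosl1, an AP-1 subunit, stood at 19.9 and 1.52 CPM in the cKO libraries, against 2.92 and 6.46 CPM in the fl/fl libraries. Csrnp1 stood at 69.9 and 16.6 CPM against 17.7 and 24.4 CPM, and Hbegf, an EGF receptor ligand released on wounding, at 84.6 and 20.5 CPM against 29.1 and 51.8 CPM. Nr4a2, the closest relative of Nr4a1, stood at 15.5 and 3.56 CPM in the cKO libraries and 6.52 and 5.88 CPM in the fl/fl libraries. Egr3 did not share the order of Egr1, at 273 and 170.5 CPM in the cKO libraries, against 549 and 223 CPM in the fl/fl libraries. Fosl2 had cKO replicate 1 highest and cKO replicate 2 lowest, at 273 and 172.5 CPM against 267 and 235 CPM. Its level in cKO replicate 1 was close to that in fl/fl replicate 1. Ier3 and Ier5 were not highest in cKO replicate 1. Ier3 was at 31.1 and 20.3 CPM against 22.7 and 31.6 CPM, and Ier5 at 69.4 and 101 CPM against 92.3 and 73.5 CPM. None of these differences passed the adjusted threshold with edgeR.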
